A study of Mus musculus with 2 samples.

Results

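The cell cycle and proliferation genes comprised 46 genes listed by symbol, of 22836 genes in the deposited count table, and all 46 were found there. They were described as 22 S-phase genes, whose products copy DNA or supply its building blocks, and 24 mitotic genes, whose products condense, hold, move and separate chromosomes. The list was fixed by gene name and not by a cut on measured values, but it was chosen with earlier results of these data known. They were measured by single-cell RNA sequencing in CD45+ cells, the leukocytes, of 14 wild-type BALB/c mice that carried Colon26 colon carcinoma cells under the skin. The minP1_PDL1 group (n = 4) received both agents, the minP1 group (n = 4) received the peptide, the PDL1 group (n = 3) received the antibody, and the Control group (n = 3) was untreated. The peptide minP1, an immunostimulatory peptide of HMGN1, was injected into the abdomen on day 9 at 0.08 µg per mouse. The antibody against PD-L1 (clone 10F.9G2) was injected on days 4 and 8 at 200 µg. Each mouse carried 200000 inoculated cells, and tumours were taken on day 10, so the peptide groups were measured the day after the peptide was given.

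Background to the gene set is as follows. A cell that commits to division loads the MCM helicase onto origins, fires them in S phase, and then builds a spindle and separates its chromosomes in mitosis. E2F factors switch on many S-phase genes at the end of G1, and a later wave that includes FOXM1 switches on mitotic genes in G2. In tumours, activated T cells and NK cells divide, some macrophages divide in place, and mature neutrophils and circulating monocytes are largely out of cycle.

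The 14 mice gave 7732 kept cells, 466 to 724 per mouse, and 26007834 to 51230461 reads per mouse. The median kept cell held 39132.5 reads over 2078 genes. The reads were not collapsed to molecules, with a median of 10 reads per nonzero entry. Exact intervals below pool the cells of all mice, so they cover counting error only and not the spread between mice. No barcode was shared between mice. A read of Ptprc, which encodes CD45, was found in 89.9% of kept cells, and in 60.6% of the largest cluster led by connective tissue genes, although the labels call the cells CD45+. The labels name the tissue as Colon26 tumor and the cells as intestinal, and they speak of separate runs without giving a run for any mouse, so run and group cannot be told apart. Cell types were rebuilt here from 21 clusters made without 209 cell cycle genes, and each name ends in "-like" for that reason. The names of 19 clusters rest on markers, and differences from the study may come from rebuilt names.

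Promoter windows are shown first, because S-phase and mitotic genes are regulated as separate waves in textbook accounts and the windows let that be read letter by letter. RefSeq windows of 300 bases (250 before and 50 after the transcription start, build GRCm38.p6) matched 37 of the 46 genes, 19 S-phase and 18 mitotic. The sequences are the windows of Mcm6 (chr1:128359656-128359955, minus strand), Mcm3 (chr1:20820263-20820562, minus strand), Top2a (chr11:99024140-99024439, minus strand) and Ube2c (chr2:164769679-164769978, plus strand), each written 5′ to 3′ along its gene. They were taken from the 3 windows of each list with the most matches, so they are rich in these letters by choice and not typical of their lists. Of these, Mcm6, Mcm3 and Top2a also carry the treatment comparisons below, and Ube2c is a mitotic gene whose window holds both motifs capitalised in it. In Mcm6 and Mcm3 capitals mark E2F-type letters (TTTGGCGC, TTTCGCGC, TTTCCCGC or TTTGCCGC), and in Top2a and Ube2c they mark CHR-type letters (TTTGAA or TTCGAA, the cell cycle homology region) and CCAAT. Both strands were searched, so capitals can also be reverse complements, and neighbouring matches can overlap.
Mcm6: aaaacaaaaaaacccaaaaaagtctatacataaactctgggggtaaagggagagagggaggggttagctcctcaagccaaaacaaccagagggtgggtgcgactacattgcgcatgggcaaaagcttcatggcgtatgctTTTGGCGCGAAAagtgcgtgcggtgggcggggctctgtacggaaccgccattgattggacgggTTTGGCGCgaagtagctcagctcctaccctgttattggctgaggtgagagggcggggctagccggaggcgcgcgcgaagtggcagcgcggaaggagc
Mcm3: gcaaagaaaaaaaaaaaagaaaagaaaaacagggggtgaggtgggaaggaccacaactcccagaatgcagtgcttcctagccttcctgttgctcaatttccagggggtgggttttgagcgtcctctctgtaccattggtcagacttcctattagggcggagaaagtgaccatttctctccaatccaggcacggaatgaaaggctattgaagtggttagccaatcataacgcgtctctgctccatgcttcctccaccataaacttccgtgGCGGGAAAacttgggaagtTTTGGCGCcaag
Top2a: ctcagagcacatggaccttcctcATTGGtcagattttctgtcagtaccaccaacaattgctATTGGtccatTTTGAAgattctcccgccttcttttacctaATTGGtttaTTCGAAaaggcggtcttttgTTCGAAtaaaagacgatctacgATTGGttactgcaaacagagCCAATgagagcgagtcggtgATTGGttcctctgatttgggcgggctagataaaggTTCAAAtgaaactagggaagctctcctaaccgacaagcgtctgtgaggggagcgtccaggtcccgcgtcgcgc
Ube2c: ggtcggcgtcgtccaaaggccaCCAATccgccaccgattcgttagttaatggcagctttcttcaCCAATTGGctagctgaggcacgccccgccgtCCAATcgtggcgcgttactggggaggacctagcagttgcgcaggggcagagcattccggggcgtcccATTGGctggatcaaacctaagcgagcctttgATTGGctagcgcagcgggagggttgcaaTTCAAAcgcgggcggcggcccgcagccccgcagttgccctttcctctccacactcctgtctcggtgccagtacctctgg

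The Mcm6 window held 3 E2F-type matches and the Mcm3 window 2, and neither held a CHR-type match. They also held 2 and 3 CCAAT matches, which are not capitalised there. The Top2a window held 4 CHR-type and 6 CCAAT matches, the Ube2c window 1 and 6, and neither held an E2F-type match. E2F-type letters stood in 6 of 19 S-phase windows (31.6%), in 1 of 18 mitotic windows (5.56%) and in 2.32% of 27025 windows of all genes. CHR-type letters stood in 14 of 18 mitotic windows (77.8%), in 2 of 19 S-phase windows (10.5%) and in 19.4% of all windows. CCAAT stood in 16 of 18 mitotic windows (88.9%), 10 of 19 S-phase windows (52.6%) and 37.9% of all windows. CHR-type letters and CCAAT stood together in 14 of 18 mitotic windows and in 7.70% of all windows. A match describes letters and not binding, and these 300-base windows leave out more distant sites.

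Across the clusters found in 8 or more mice, the summed genes were highest in T-like cells that expressed Cd8a and Pdcd1. Levels are CPM, the reads of a gene or list per 1000000 reads of the summed cells of 1 mouse and cluster, in mice with at least 10 such cells. In summed cells, fewer dividing cells and less RNA per dividing cell cannot be told apart. The mitotic genes summed to 3443 ± 934 CPM in Cd8a Pdcd1 T-like cells (SD, n = 14 mice, 1427 to 4728 CPM), and the S-phase genes to 3011 ± 720 CPM. Foxp3 T-like cells came next for mitotic genes with 2333 ± 577 CPM. For S-phase genes they held 1937 ± 485 CPM, beside 1954 ± 834 CPM in Gzmd Gzme NK-like cells (n = 8). The mitotic sum was higher in Cd8a Pdcd1 than in Foxp3 T-like cells in 13 of 14 mice. At the other end, Chil3 Mmp8 monocyte-like cells held 173 ± 70.5 CPM of mitotic genes and Il17a Trdc T-like cells 202 ± 87.3 CPM (n = 8).

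Between those ends, mitotic sums came in an order with much overlap. The Mgp Hmga2 non-immune cluster stood at 1756 ± 796 CPM, the Gzmd Gzme NK-like cluster at 1725 ± 836 CPM (n = 8) and the C1qa Ch25h macrophage-like cluster at 1662 ± 356 CPM. A shallow cluster led by Rn28s1, whose top genes include C1qa and C1qc and which was counted with the monocyte- and macrophage-like cells on 5 markers, stood at 1452 ± 849 CPM. The Klri2 Ncr1 NK-like cluster stood at 1405 ± 598 CPM and the S100a9 neutrophil-like cluster at 1204 ± 699 CPM. Cd209a Xcr1 dendritic-like cells held 980 ± 584 CPM, Ly6i C3 monocyte-like cells 741 ± 175 CPM, Siglech dendritic-like cells 709 ± 313.04 CPM (n = 13), S1pr1 Tcf7 T-like cells 704 ± 604 CPM and Mmp12 Arg1 macrophage-like cells 561 ± 262 CPM. Neighbours in this order, from the Mgp Hmga2 cluster down to the Mmp12 Arg1 cluster, did not differ beyond their spread. The step from Mmp12 Arg1 macrophage-like to Il17a Trdc T-like cells was a clear one, and the first was higher in 8 of 8 mice with both.

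**Figure D1:**
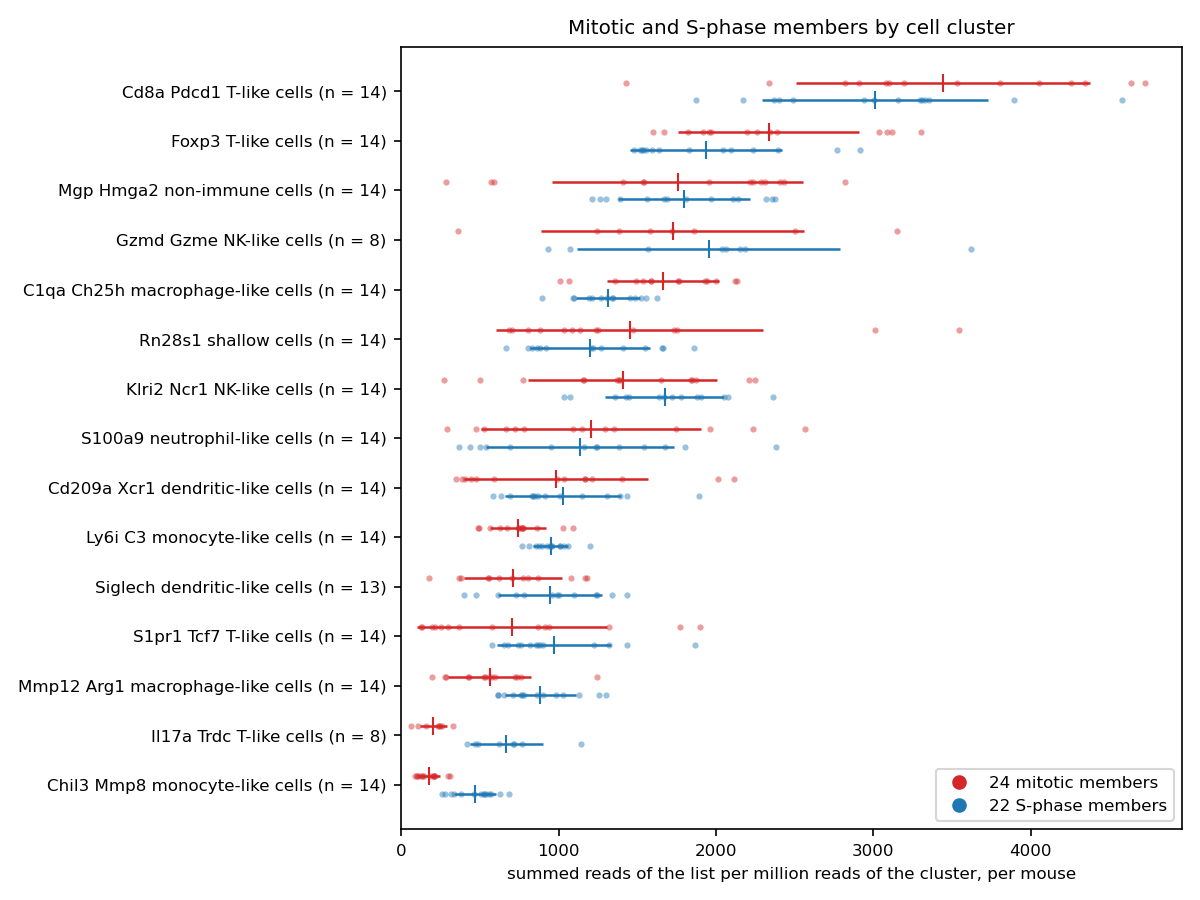
Summed CPM of the 24 mitotic genes (red) and the 22 S-phase genes (blue) in each cell cluster. Small points are mice, ticks and bars are the mean and SD over mice, and n is the number of mice with at least 10 cells. Cd8a Pdcd1 T-like cells stand highest at 3443 CPM of mitotic genes, and Chil3 Mmp8 monocyte-like cells lowest at 173 CPM.

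The S-phase genes spread less widely than the mitotic genes between the high and the low clusters. Chil3 Mmp8 monocyte-like cells kept 468 ± 135 CPM of S-phase genes and Il17a Trdc T-like cells 665 ± 232 CPM. The log2 ratio of S-phase to mitotic sums was 1.81 in Il17a Trdc T-like cells, 1.48 in Chil3 Mmp8 monocyte-like cells and 0.94 in S1pr1 Tcf7 T-like cells. It was -0.32 in C1qa Ch25h macrophage-like cells, -0.27 in Foxp3 T-like cells and -0.17 in Cd8a Pdcd1 T-like cells. Clusters with few mitotic reads thus still held S-phase reads. Pcna made up part of that remainder, a larger part in Chil3 Mmp8 monocyte-like than in Il17a Trdc T-like cells, as the single genes show.

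Among the S-phase genes, Pcna, which encodes the sliding clamp of DNA polymerases, took 27.6% of all S-phase reads and was found in 57.3% of kept cells. Its level was 671 ± 240 CPM in Cd8a Pdcd1 T-like cells, 346 ± 59.0 CPM in C1qa Ch25h macrophage-like cells, 221 ± 83.2 CPM in Chil3 Mmp8 monocyte-like cells and 208 ± 107 CPM in Il17a Trdc T-like cells. Pcna therefore stayed well above 0 in the clusters where mitotic sums were lowest. Slbp, which binds the ends of histone mRNAs, and Cdt1, which loads the MCM helicase together with Cdc6, showed the same shallow profile. Slbp stood at 129 ± 55.7 CPM in Cd8a Pdcd1 T-like cells and 40.0 ± 24.5 CPM in Chil3 Mmp8 monocyte-like cells. Cdt1 was nearly level, with 47.1 ± 26.8 CPM in Cd8a Pdcd1 T-like cells and 37.4 ± 25.7 CPM in Chil3 Mmp8 monocyte-like cells.

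The genes of the replicative helicase followed the dividing clusters. The MCM2 to MCM7 proteins form the ring that unwinds DNA. Mcm6 averaged 192 ± 102 CPM in Cd8a Pdcd1 T-like cells, 182 ± 54.5 CPM in Foxp3 T-like cells, 134 ± 38.8 CPM in Klri2 Ncr1 NK-like cells, 81.9 ± 24.8 CPM in C1qa Ch25h macrophage-like cells and 15.3 ± 15.8 CPM in Chil3 Mmp8 monocyte-like cells. Mcm3 had 169 ± 65.7 CPM in Cd8a Pdcd1 T-like cells and 17.4 ± 19.4 CPM in Chil3 Mmp8 monocyte-like cells. Mcm2, Mcm4, Mcm5 and Mcm7 held 87.3, 161, 124 and 135 CPM in Cd8a Pdcd1 T-like cells, and 11.5, 33.0, 12.7 and 4.42 CPM in Chil3 Mmp8 monocyte-like cells. Gins2, a subunit of the GINS complex that joins the helicase, had 53.7 CPM in Cd8a Pdcd1 T-like and 53.6 CPM in Mgp Hmga2 non-immune cells, against 13.3 CPM in Foxp3 T-like cells. Cdc6, the other loader of the helicase, was thinly read, in 3.45% of kept cells.

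Genes that make or guard the DNA building blocks were also high in Cd8a Pdcd1 T-like cells. Dut, whose product removes dUTP, had 410 ± 112 CPM there, against 145 ± 61.8 CPM in Foxp3 T-like cells and 13.7 ± 14.7 CPM in Chil3 Mmp8 monocyte-like cells. Rrm2, the regulated subunit of ribonucleotide reductase, had 231 ± 66.8 CPM in Cd8a Pdcd1 T-like cells and 3.25 CPM in Chil3 Mmp8 monocyte-like cells. Its partner Rrm1 had 182 and 12.6 CPM in the same clusters. Tyms, which makes thymidylate, had 114 and 17.2 CPM, and Tk1, which salvages thymidine, had 86.9 and 1.56 CPM. Ung, which removes uracil from DNA, had 27.4 ± 26.7 CPM in Cd8a Pdcd1 T-like cells and 1.62 ± 3.45 CPM in Foxp3 T-like cells.

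The remaining S-phase genes act in timing or in chromatin. Ccne1 and Ccne2 encode the E cyclins that start S phase. Ccne1 had 30.3 ± 19.8 CPM in Cd8a Pdcd1 T-like cells, 23.0 ± 15.5 CPM in Mgp Hmga2 non-immune cells and 7.33 ± 9.86 CPM in Foxp3 T-like cells, and Ccne2 was read in 2.86% of kept cells. E2f1, the transcription factor of the G1 to S switch, stood at 40.2 ± 17.5 CPM in Mgp Hmga2 non-immune cells, its highest cluster, and at 25.9 ± 16.3 CPM in Cd8a Pdcd1 T-like cells. Uhrf1, which keeps DNA methylation through replication, had 74.9 CPM and Timeless, a replication fork protein, 28.1 CPM in Cd8a Pdcd1 T-like cells.

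Among the mitotic genes, Stmn1, which encodes a microtubule destabiliser, took 17.7% of all mitotic reads. Stmn1 had 492 ± 114 CPM in Cd8a Pdcd1 T-like cells, 355 ± 140 CPM in Klri2 Ncr1 NK-like cells, 25.01 ± 31.4 CPM in Chil3 Mmp8 monocyte-like cells and 7.21 ± 17.8 CPM in Il17a Trdc T-like cells. Top2a, the topoisomerase that untangles sister chromatids, had 450 ± 195 CPM, 148 ± 62.3 CPM, 7.51 ± 7.53 CPM and 17.5 ± 27.5 CPM in the same clusters. Mki67, which coats mitotic chromosomes and is the usual proliferation marker, was close in both leading clusters, at 313.1 ± 97.6 CPM in Cd8a Pdcd1 and 300 ± 116 CPM in Foxp3 T-like cells. It was 65.4 ± 38.6 CPM in Mgp Hmga2 non-immune cells, where Top2a was 201 ± 104 CPM. Mki67 and Top2a thus ordered the non-immune and the NK-like clusters differently, with Mki67 higher in Klri2 Ncr1 NK-like cells at 150 ± 80.7 CPM.

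Most kinase and cyclin genes that start mitosis were also higher in Cd8a Pdcd1 T-like than in Chil3 Mmp8 monocyte-like cells. Cdk1, the mitotic kinase, had 103 ± 61.1 CPM in Cd8a Pdcd1 T-like cells and 5.75 ± 8.27 CPM in Chil3 Mmp8 monocyte-like cells. Its cyclin partners Ccnb1, Ccnb2 and Ccna2 had 42.1, 106 and 119 CPM in Cd8a Pdcd1 T-like cells, and 0.221, 5.84 and 0.296 CPM in Chil3 Mmp8 monocyte-like cells. Foxm1, the transcription factor of the mitotic wave, had 38.3 ± 22.1 CPM in Mgp Hmga2 non-immune cells and 35.4 ± 17.7 CPM in Cd8a Pdcd1 T-like cells. Plk1, the polo-like kinase, was not read in Chil3 Mmp8 monocyte-like cells of any mouse with 10 such cells. Aurka, a spindle pole kinase, differed only within the spread, at 11.5 ± 7.47 CPM in Chil3 Mmp8 monocyte-like and 19.0 ± 12.8 CPM in Cd8a Pdcd1 T-like cells.

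Genes of the centromere, the checkpoint and the exit from mitosis completed the list. Cenpa, the centromeric form of histone H3, had 398 ± 184 CPM in Cd8a Pdcd1 T-like cells and, like Pcna, kept a remainder of 98.3 ± 82.0 CPM in Il17a Trdc T-like cells and 58.4 ± 41.4 CPM in Chil3 Mmp8 monocyte-like cells. Birc5 and Aurkb, subunits of the chromosomal passenger complex, had 242 and 64.1 CPM in Cd8a Pdcd1 T-like cells. Ube2c and Cdc20, which drive the anaphase-promoting complex, had 249 and 90.0 CPM there. Bub1 and Bub1b, the checkpoint kinases, had 52.6 and 65.7 CPM, and the kinetochore genes Cenpe and Cenpf 98.0 and 90.8 CPM. The spindle genes Tpx2, Nusap1, Kif11, Kif23 and Kif20a had 114, 102, 64.3, 63.9 and 39.9 CPM. In Chil3 Mmp8 monocyte-like cells Ube2c had 17.6 CPM, Birc5 10.9 CPM and Cenpe 4.39 CPM, and the kinetochore, checkpoint and spindle genes named here were each under 5 CPM.

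**Figure D2:**
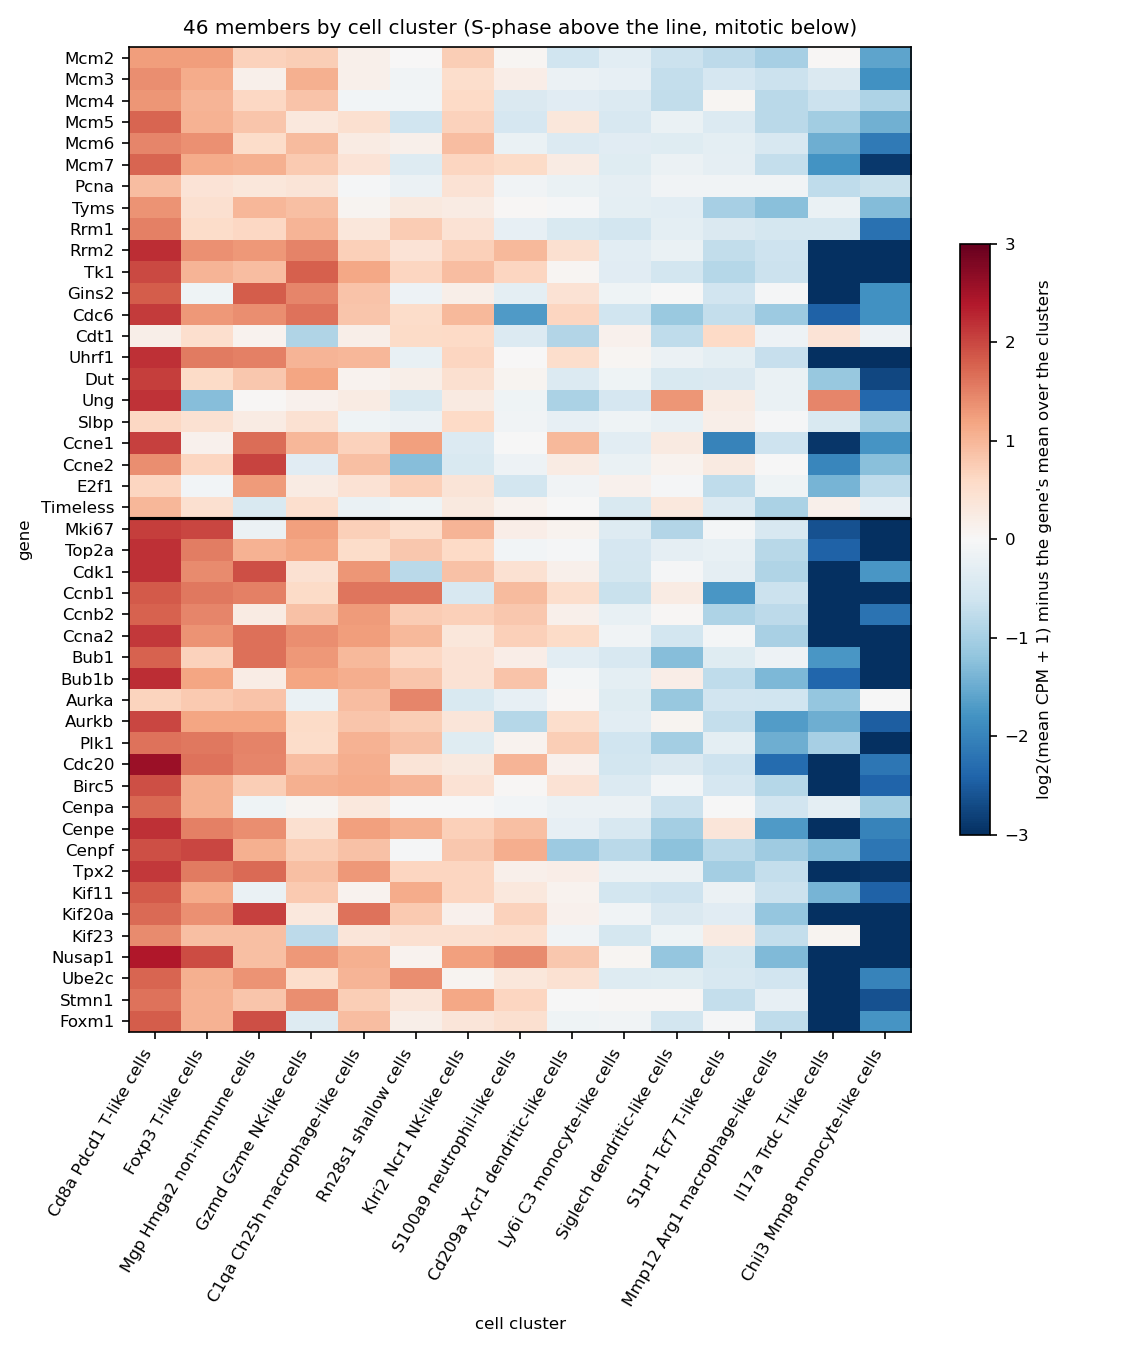
Level of each of the 46 genes in each cell cluster with at least 8 mice, as log2(mean CPM + 1) minus the mean of that gene over the clusters, S-phase genes above the line and mitotic genes below, with colours ending at -3 and 3. Cd8a Pdcd1 T-like cells are red for most genes, Chil3 Mmp8 monocyte-like and Il17a Trdc T-like cells are blue for most mitotic genes, and Pcna, Slbp and Cdt1 are paler there.

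Single cells were compared after each was thinned to 10000 reads, which left out 605 shallower cells and kept 7127. Of these, 3123 had a read of none of the 24 mitotic genes, 1932 of 1, 1125 of 2 to 4, 417 of 5 to 9 and 530 of 10 or more. Cells with at least 5 mitotic genes were 947, or 13.3% (exact 95% interval 12.5 to 14.1%), and 17.3% before thinning. Cells with at least 5 S-phase genes were 1288, or 18.1%. Both held for 649 cells, so 68.5% of cells past the mitotic count were past the S-phase count and 50.4% the other way round. Another 298 cells had only the mitotic count and 639 only the S-phase count. The count of 5 marks a range and not a cell type, and 1125 cells lay at 2 to 4.

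Cells with more mitotic genes were deeper before thinning. The median was 31210 reads in cells with none, 39451 with 1, 62559 with 2 to 4, 124392 with 5 to 9 and 137274 with 10 or more. The share of cells over a doublet score of 0.5 was 19.9%, 26.7%, 38.4%, 53.5% and 42.8% in the same order. The part of doublets in these counts was tested only as far as leaving such cells out, below.

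Among clusters of more than 50 thinned cells, the shares of thinned cells with at least 5 mitotic genes were 35.7% in C1qa Ch25h macrophage-like cells (255 of 714, exact 95% interval 32.2 to 39.4%) and 32.9% in Cd8a Pdcd1 T-like cells (97 of 295, 27.5 to 38.6%). Mgp Hmga2 non-immune cells had 27.2%, Mcpt4 mast-like cells 23.9% (17 of 71) and Gzmd Gzme NK-like cells 19.9% (30 of 151). Cd209a Xcr1 dendritic-like cells had 12.5%, Siglech dendritic-like cells 12.2%, Foxp3 T-like cells 11.2%, Ly6i C3 monocyte-like cells 10.6%, Mmp12 Arg1 macrophage-like cells 8.43% and Klri2 Ncr1 NK-like cells 7.83%. Hspa1a macrophage-like cells had 10.1% (9 of 89), the shallow Rn28s1 cluster 8.59% (11 of 128) and Krt8 Ptn non-immune cells 5.77% (3 of 52). S100a9 neutrophil-like cells had 5.33% and S1pr1 Tcf7 T-like cells 1.72%. Chil3 Mmp8 monocyte-like cells had 0.571% (2 of 350), and Il17a Trdc T-like cells had 0 of 132, which allows up to 2.27%. An unnamed cluster led by Ctsk and Acp5 had 12 of 32 cells (37.5%). The C1qa Ch25h cluster thus had the highest pooled share among the larger clusters in this count. Over mice it did not stand apart from the Cd8a Pdcd1 cluster, at 34.6 ± 10.4% and 32.6 ± 8.90% (SD, n = 14). The median depth of the C1qa Ch25h cluster, 126811 reads, was above the 53390 reads of the Cd8a Pdcd1 cluster.

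An Mki67 read was found in 1048 thinned cells (14.7%). The share was 38.0% in Cd8a Pdcd1 T-like cells, 28.0% in C1qa Ch25h macrophage-like cells and 17.5% in Foxp3 T-like cells. It was 3.14% in Chil3 Mmp8 monocyte-like cells (median 47084 reads) and 3.03% in Il17a Trdc T-like cells (median 19163 reads), clusters with almost no mitotic count. Whether those are background reads was not tested.

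**Figure D3:**
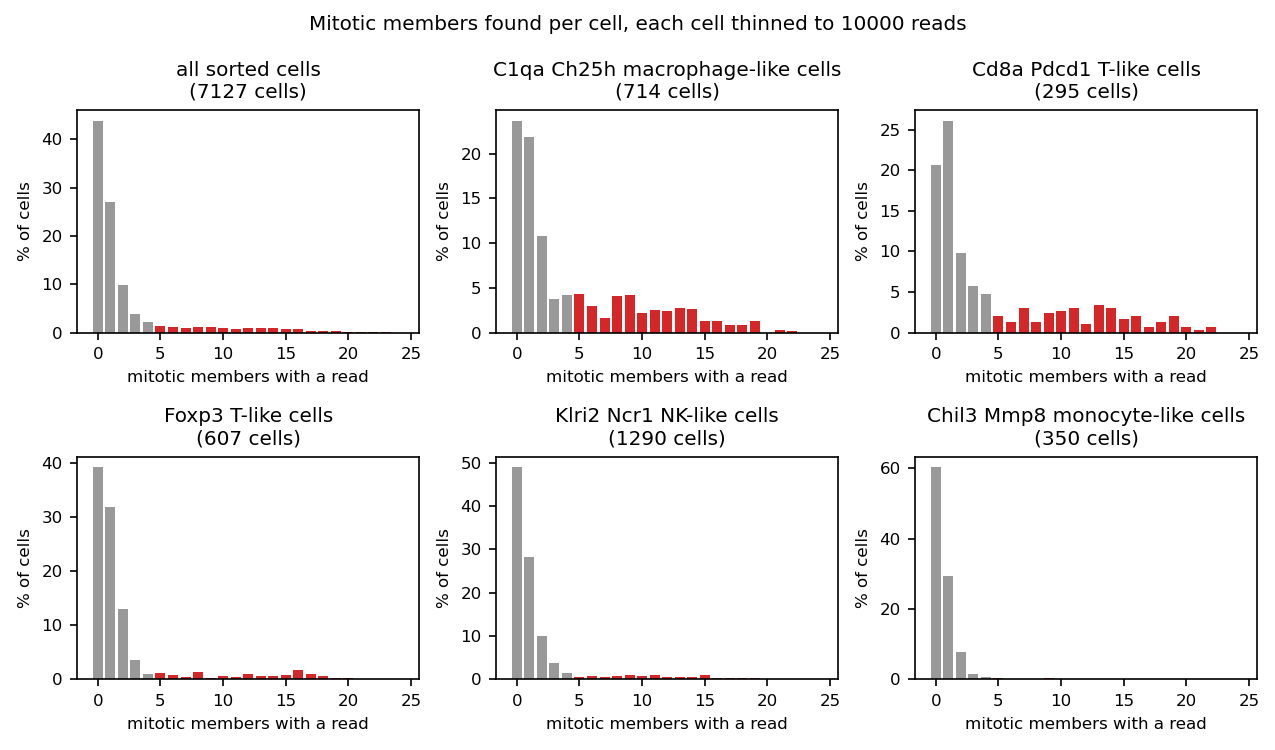
Percent of cells by the number of the 24 mitotic genes with a read, in all sorted cells and 5 clusters, each cell thinned to 10000 reads. Red bars are cells with 5 or more, which are 35.7% of C1qa Ch25h macrophage-like cells, 32.9% of Cd8a Pdcd1 T-like cells and 0.571% of Chil3 Mmp8 monocyte-like cells.

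Markers of other lineages moved with the mitotic count in some myeloid clusters and not in others. T-like and NK-like cells were called mixed where 20 monocyte and macrophage markers summed to over 500 CPM, and all other cells where 10 T cell and 10 NK cell markers together did. Without mixed cells the share with at least 5 mitotic genes was 0.948% in Ly6i C3 monocyte-like cells (2 of 211), 0.813% in Mmp12 Arg1 macrophage-like cells (1 of 123) and 0 of 195 in S100a9 neutrophil-like cells, which allows up to 1.54%. It was 32.2% in C1qa Ch25h macrophage-like cells (67 of 208), 34.0% in Cd8a Pdcd1 T-like cells, 10.2% in Foxp3 T-like cells, 6.98% in Klri2 Ncr1 NK-like cells and 27.8% in Mgp Hmga2 non-immune cells. With a doublet score of up to 0.5 it was 1.03% in Ly6i C3 monocyte-like cells (3 of 290), 0.383% in S100a9 neutrophil-like cells (1 of 261) and 23.7% in C1qa Ch25h macrophage-like cells (64 of 270), against 32.3% in Cd8a Pdcd1 T-like and 26.5% in Mgp Hmga2 non-immune cells. The C1qa Ch25h cluster therefore did not lead in either restricted set. Siglech dendritic-like cells had 3.45% without mixed cells (3 of 87) and 1.23% with the doublet limit (1 of 81), and Cd209a Xcr1 dendritic-like cells 9.66% and 9.00%. The unnamed Ctsk Acp5 cluster had 12 of 26 without mixed cells and 0 of 3 with the doublet limit. Of Krt8 Ptn non-immune cells 3 of 46 were counted without mixed cells, and 96.3% of that cluster was over the doublet score.

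The marker levels show the same division. In Ly6i C3 monocyte-like cells the T cell markers summed to 2479 CPM where at least 5 mitotic genes were read and 1503 CPM elsewhere, and Cd3e, a T cell receptor subunit gene, was read in 77.8% and 38.1% of those cells. The Cd3e shares were taken before thinning, and cells with more mitotic genes were deeper. They were also higher with at least 5 mitotic genes in C1qa Ch25h (50.6% and 42.5%), Foxp3 (89.7% and 67.7%) and Klri2 Ncr1 cells (22.8% and 11.7%). They were lower only in Mcpt4 mast-like cells (17.6% and 37.0%) and in Chil3 Mmp8 cells, with 2 such cells. Cd3e alone therefore does not separate the clusters. In S100a9 neutrophil-like cells NK markers summed to 4603 CPM with at least 5 mitotic genes and 1978 CPM without. In C1qa Ch25h macrophage-like cells the T cell markers were 1194 and 1129 CPM and the NK markers 1499 and 1467 CPM. Cells with at least 5 mitotic genes were therefore rarer without mixed cells in the Ly6i C3, Mmp12 Arg1, Siglech and S100a9 clusters. In the C1qa Ch25h, Cd8a Pdcd1, Foxp3, Klri2 Ncr1 and Mgp Hmga2 clusters they were about as frequent without them. Mixed cells were 75.3% of Ly6i C3, 65.4% of Mmp12 Arg1, 55.8% of Siglech and 50.5% of S100a9 cells. They were 70.9% of C1qa Ch25h, 66.1% of Cd8a Pdcd1, 67.5% of Foxp3, 80% of Klri2 Ncr1 and 5.35% of Mgp Hmga2 cells. Most unmixed shares thus rest on a minority of cells, and 188 of the 255 C1qa Ch25h cells with at least 5 mitotic genes were also mixed.

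The treatment comparisons ask whether division genes differed between groups, and edgeR called none of the 46 genes in any of them. Counts were summed per mouse, fitted with edgeR's quasi-likelihood test over all genes, and adjusted by Benjamini-Hochberg with a threshold of 0.05. In all sorted cells the called share of 18410 genes was 0% in each comparison, so the 0 of 46 members equals the background. The number of members with an unadjusted p under 0.05 was 18 for minP1_PDL1 against Control (1915 genes of all), 4 for minP1 against Control (1278), 9 for PDL1 against Control (1211), 2 for minP1_PDL1 against PDL1 (776) and 4 for minP1_PDL1 against minP1 (1106). DESeq2 called 3 members for minP1_PDL1 against Control (0.782% of all genes) and 1 for PDL1 against Control (0.261%). It called 0 members in the other comparisons of all sorted cells. Of all 18410 genes it called 38 for minP1 against Control, 3 for minP1_PDL1 against PDL1 and 44 for minP1_PDL1 against minP1. For minP1_PDL1 against minP1 and against PDL1 the same minP1_PDL1 mice were used, and the 3 comparisons with Control share the Control mice.

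In all sorted cells, summed S-phase genes were highest in the Control mice. They summed to 1240, 1383, 1065 and 1199 CPM in minP1_PDL1 mice, 1358, 1395, 1225 and 1435 CPM in minP1 mice, 1348, 1166 and 1259 CPM in PDL1 mice, and 1698, 1529 and 1486 CPM in Control mice. No value of a group given an agent reached the lowest Control value in all sorted cells. In immune cells alone this no longer held, as minP1_PDL1 replicate 2 (1390 CPM) and PDL1 replicate 1 (1394 CPM) were above the lowest Control mouse (1386 CPM). Mitotic sums were 1307, 1609, 763 and 1119 CPM in minP1_PDL1 mice, 1454, 1362, 1045 and 1419 CPM in minP1 mice, 1649, 1161 and 1438 CPM in PDL1 mice, and 1510, 1661 and 1428 CPM in Control mice. These overlapped, and minP1_PDL1 replicate 3 was the lowest of all mice.

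The median log2 change of the 22 S-phase genes was -0.44 for minP1_PDL1 against Control, with 21 of 22 below 0. It was -0.26 for minP1 against Control (18 of 22) and -0.35 for PDL1 against Control (21 of 22). The 24 mitotic genes had medians of -0.35 (24 of 24 below 0), -0.20 (22 of 24) and -0.11 (19 of 24) in the same comparisons. The medians over all 18410 genes were 0.01, 0.01 and -0.00. With the second agent set against the first alone the medians were -0.05 for S-phase and -0.27 for mitotic genes in minP1_PDL1 against PDL1, and -0.18 and -0.16 in minP1_PDL1 against minP1. The interaction of both agents had medians of 0.17 and -0.02. edgeR called 0 members (0% of genes, with 2 members and 826 of all genes at an unadjusted p under 0.05). DESeq2 called 0 members and 10 of all genes. Leaving out 1 mouse moved several of these medians by over 1.5 times. The S-phase median of minP1 against Control was -0.14 without Control replicate 1. The mitotic median of minP1_PDL1 against Control was -0.19 without minP1_PDL1 replicate 3, that of minP1 against Control was -0.12 without Control replicate 2, and that of PDL1 against Control ran from -0.29 without PDL1 replicate 1 to -0.03 without PDL1 replicate 2. In minP1_PDL1 against PDL1 the mitotic median ran from -0.45 without minP1_PDL1 replicate 2 to -0.10 without PDL1 replicate 1. Against minP1 it ran from -0.32 without minP1_PDL1 replicate 2 to 0.02 without minP1_PDL1 replicate 3. The S-phase median of minP1_PDL1 against PDL1 ran from -0.14 without PDL1 replicate 2 to 0.02 without minP1_PDL1 replicate 3, and that against minP1 was -0.11 without minP1_PDL1 replicate 3.

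The helicase genes Mcm3 and Mcm6 had the smallest adjusted p of the set. Mcm3 had 54.9, 66.3, 57.7 and 60.5 CPM in minP1_PDL1 mice, 73.6, 65.5, 69.7 and 83.8 CPM in minP1 mice, 67.7, 56.3 and 64.4 CPM in PDL1 mice, and 97.2, 86.3 and 87.0 CPM in Control mice. Every Control value was above every other value. The log2 change of Mcm3 for minP1_PDL1 against Control was -0.58 (SE 0.10, edgeR adjusted p = 0.300), and DESeq2 called it with an adjusted p of 0.00034. DESeq2 also called Mcm3 for PDL1 against Control (log2 change -0.51, adjusted p = 0.0112), where edgeR gave -0.52 (SE 0.11, adjusted p = 0.594).

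Mcm6 had 73.7, 77.6, 68.2 and 65.3 CPM in minP1_PDL1 mice, 88.1, 84.0, 74.6 and 90.7 CPM in minP1 mice, 87.7, 74.5 and 79.8 CPM in PDL1 mice, and 131, 91.9 and 103 CPM in Control mice. The groups given an agent lay below the lowest Control value, by little for minP1. Its log2 change for minP1_PDL1 against Control was -0.60 (SE 0.11, edgeR adjusted p = 0.300), and DESeq2 gave an adjusted p of 0.00152. Gins2 was the third gene that DESeq2 called (log2 change -0.66, adjusted p = 0.0406). Gins2 had 16.9, 19.6, 21.6 and 22.5 CPM in minP1_PDL1 mice, and 39.0, 27.0 and 30.3 CPM in Control mice.

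The other S-phase genes of that comparison had log2 changes from -0.74 for Ung (SE 0.42) to 0.12 for Ccne1 (SE 0.31), none called. Between them lay Timeless (-0.61), Uhrf1 (-0.60), Mcm7 (-0.53), Tyms (-0.48), Rrm2 (-0.40), Mcm2 and Mcm5 (-0.39 each), Mcm4 (-0.37), Pcna (-0.23), Cdt1 (-0.21) and Slbp (-0.15). E2f1 had -0.51 (SE 0.21). Pcna had 347, 379, 300 and 382 CPM in minP1_PDL1 mice and 427, 422 and 397 CPM in Control mice, so its groups did not overlap although its change was small.

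Mitotic genes in minP1_PDL1 against Control ran from -0.71 for Ccnb1 (SE 0.44) through Cdc20 (-0.64, SE 0.40), Foxm1 (-0.64, SE 0.27), Cdk1 (-0.63, SE 0.26) and Ube2c (-0.57, SE 0.28) to Mki67 (-0.10, SE 0.18) and Kif11 (-0.02, SE 0.29). None was called by edgeR or DESeq2. Mki67 had 91.5, 142, 70.0 and 85.5 CPM in minP1_PDL1 mice, 98.2, 108, 91.3 and 95.9 CPM in minP1 mice, 121, 102 and 127 CPM in PDL1 mice, and 114, 107 and 94.7 CPM in Control mice. The groups overlapped widely for this usual marker of division. Top2a, Stmn1 and Birc5 had -0.23, -0.34 and -0.28, and minP1_PDL1 and Control mice overlapped for each.

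In minP1 against Control the S-phase genes ran from Uhrf1 (-0.45), Tyms (-0.38) and Gins2 (-0.36) to Ung (0.09), Cdc6 (0.19) and Ccne1 (0.30), and the mitotic genes from Ube2c (-0.51), Foxm1 and Cdk1 (-0.46 each) to Birc5 (-0.03), Bub1b (0.05) and Ccnb2 (0.14). In PDL1 against Control the S-phase genes ran from Ung (-0.69), Mcm3 and Cdc6 (-0.52 each) to Cdt1 (-0.19), Mcm5 (-0.14) and Tk1 (0.09), and the mitotic genes from Plk1 (-0.44), Kif20a (-0.37) and Ccnb1 (-0.36) to Cenpf (0.20), Aurkb (0.25) and Ccnb2 (0.39). In minP1_PDL1 against PDL1 they ran from Tk1 (-0.43) to Ccne1 (0.37) and from Ccnb2 (-0.56) to Plk1 (0.05). In minP1_PDL1 against minP1 they ran from Ung (-0.83) to Slbp (0.01) and from Bub1b (-0.56) to Kif11 (0.25). No gene was called by edgeR in these.

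**Figure D4:**
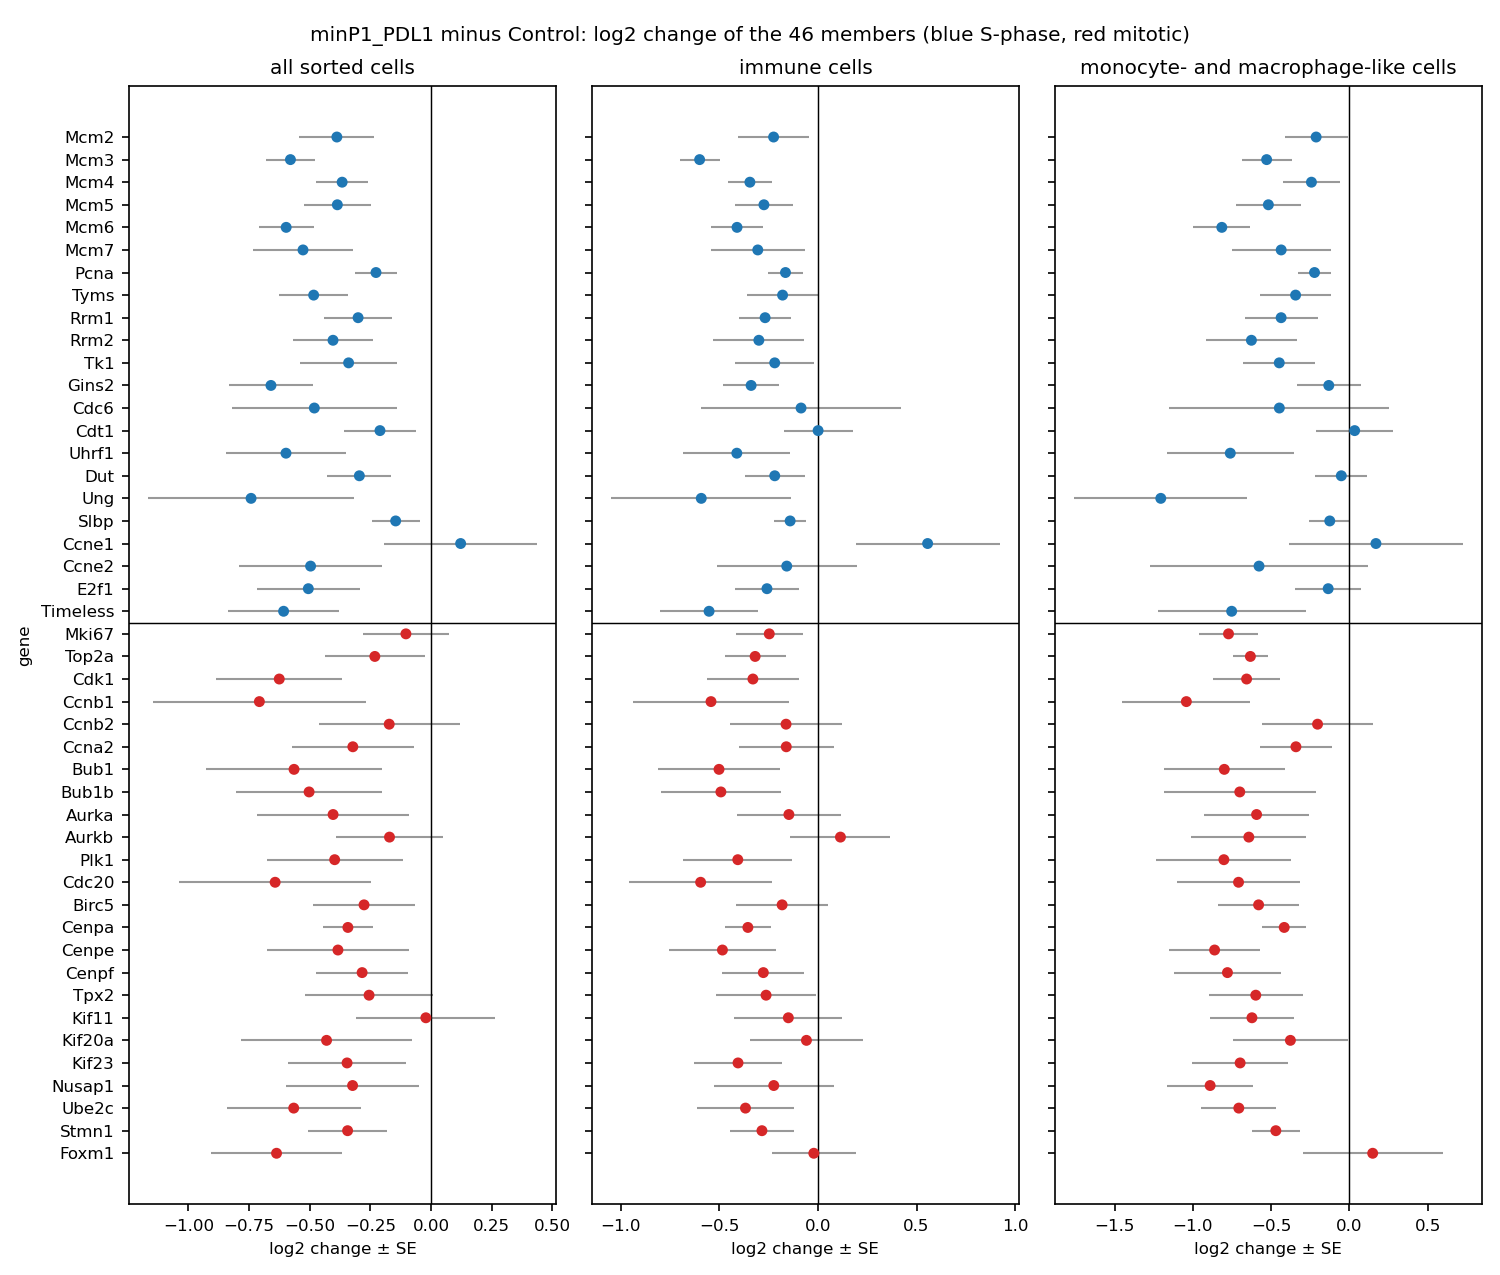
edgeR log2 change (points) with SE (bars) of each of the 46 genes for minP1_PDL1 minus Control in all sorted cells, in immune cells and in monocyte- and macrophage-like cells, blue for S-phase and red for mitotic genes. In all sorted cells 45 of the 46 points lie below 0, and none passed the threshold.

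The share of reads from non-immune cells also differed between mice, and its part in these values was tested only as far as leaving such cells out. They held 25.2%, 11.6%, 8.23% and 11.9% of reads in minP1_PDL1 mice, 18.2%, 9.50%, 7.91% and 10.2% in minP1 mice, 28.3%, 6.07% and 14.7% in PDL1 mice, and 29.3%, 18.2% and 26.2% in Control mice. Over all mice they gave 16.3% of reads, 20.4% of S-phase reads and 21.6% of mitotic reads. In immune cells alone the S-phase medians were -0.26 for minP1_PDL1, -0.10 for minP1 and -0.14 for PDL1, each against Control, and the mitotic medians were -0.28, -0.07 and 0.04. edgeR called 0 of 46 members there (0% of 17319 genes), with 6, 1 and 4 members at an unadjusted p under 0.05, beside 8.19%, 4.45% and 5.94% of all genes, so the counts for minP1 and PDL1 are near or below the background. DESeq2 called Mcm3 for minP1_PDL1 against Control (0.618% of genes), and Mcm3 and Slbp for PDL1 against Control (0.202%).

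The Mcm3 difference was as large in immune cells alone. It had 61.9, 70.2, 57.0 and 59.6 CPM in minP1_PDL1 mice, 79.5, 68.6, 68.4 and 78.3 CPM in minP1 mice, 72.1, 55.0 and 65.5 CPM in PDL1 mice, and 102, 88.9 and 91.5 CPM in Control mice, again with every Control value on top. Its log2 change was -0.60 for minP1_PDL1 (SE 0.10, edgeR adjusted p = 0.162) and -0.56 for PDL1 (SE 0.11, edgeR adjusted p = 0.521), each against Control. For Gins2 the difference was smaller, with a log2 change of -0.34 (SE 0.14), and 14.4, 17.3, 17.1 and 13.4 CPM in minP1_PDL1 mice and 17.5, 20.6 and 20.8 CPM in Control mice.

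**Figure D5:**
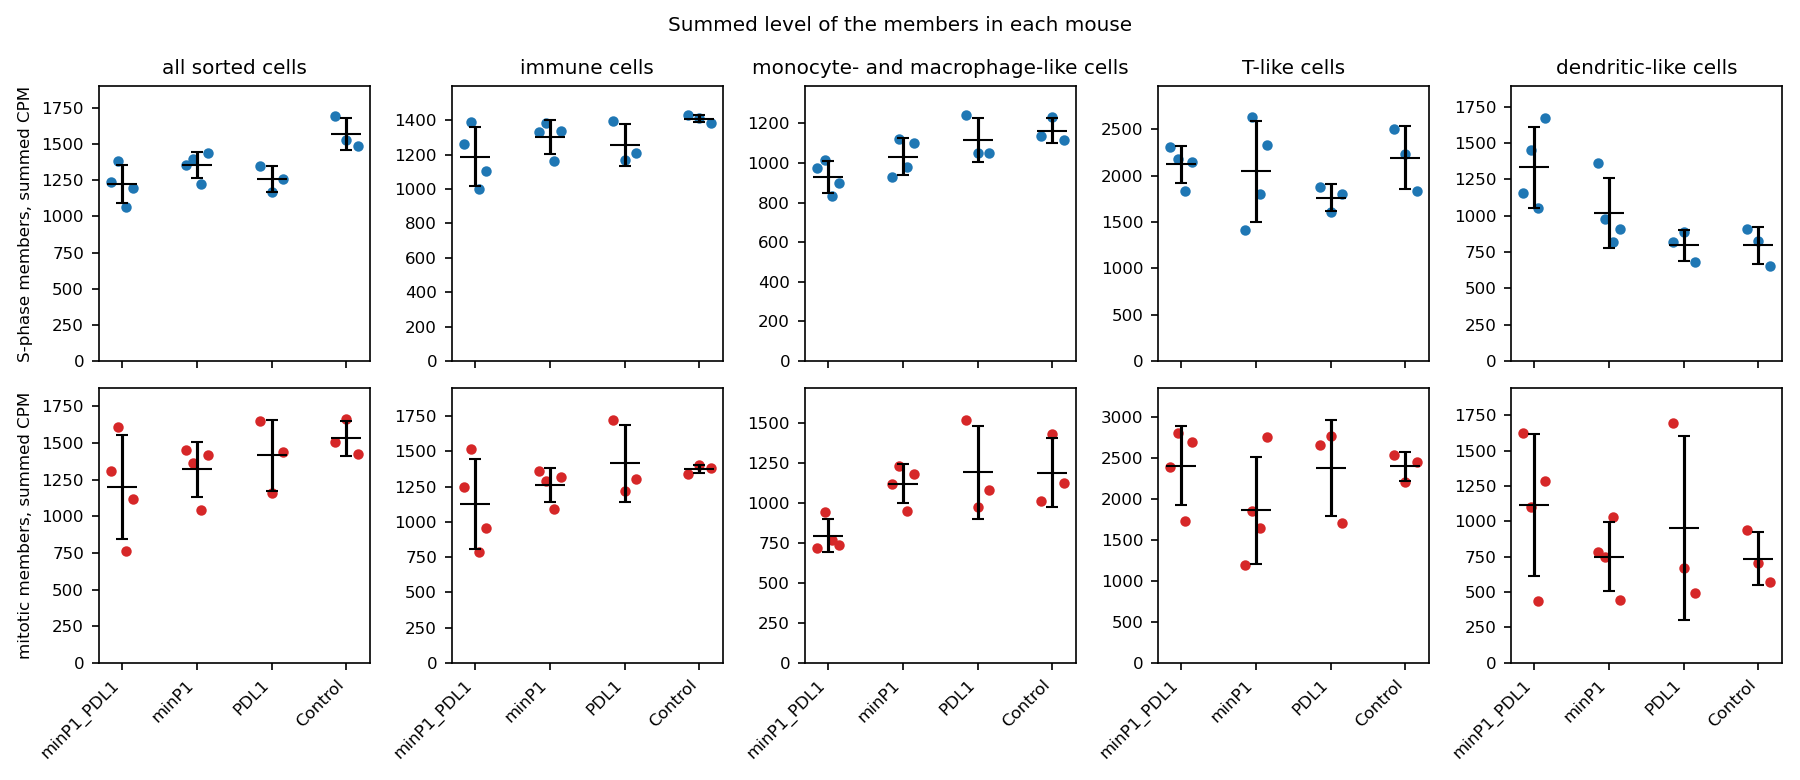
Summed CPM of the S-phase genes (upper panels, blue) and mitotic genes (lower panels, red) in each mouse, with the mean and SD of each group in black, in 5 sets of cells. S-phase sums of all sorted cells are 1486 CPM or more in the Control mice and 1435 CPM or less elsewhere, and mitotic sums of monocyte- and macrophage-like cells are 944 CPM or less in minP1_PDL1 mice.

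Within cell classes, mitotic sums of monocyte- and macrophage-like cells were lowest in the minP1_PDL1 mice. Their mitotic sums were 720, 944, 770 and 737 CPM in minP1_PDL1 mice, 1116, 1232, 950 and 1180 CPM in minP1 mice, 1520, 971 and 1078 CPM in PDL1 mice, and 1012, 1431 and 1122 CPM in Control mice. The minP1_PDL1 mice did not overlap any other group, and the nearest minP1 value was 950 CPM. The S-phase sums were 976, 1014, 833 and 898 CPM in minP1_PDL1 mice, 928, 1119, 982 and 1101 CPM in minP1 mice, 1242, 1050 and 1051 CPM in PDL1 mice, and 1136, 1233 and 1116 CPM in Control mice. The median log2 change of mitotic genes was -0.65 against Control (23 of 24 below 0), -0.51 against PDL1 (24 of 24) and -0.49 against minP1 (22 of 24), beside 0.00, 0.01 and 0.01 over all 15169 genes. The S-phase medians were -0.44, -0.32 and -0.20. For minP1 and PDL1 against Control the mitotic medians were -0.14 and -0.06. Without Control replicate 2 the medians of minP1_PDL1 against Control were -0.43 for mitotic and -0.26 for S-phase genes, and without PDL1 replicate 1 those against PDL1 were -0.29 and -0.12. The S-phase median against minP1 ran from -0.31 without minP1 replicate 1 to -0.12 without minP1 replicate 2.

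edgeR called 0 of 46 members and 0% of genes in each of these, with 18 members at an unadjusted p under 0.05 for minP1_PDL1 against Control (1119 of all genes), 14 against PDL1 (912) and 10 against minP1 (1082). DESeq2 called 3 members against Control (0.283% of genes), 1 against PDL1 (0.0989%) and 0 against minP1 (48 of all genes). Top2a had 72.3, 79.8, 69.0 and 65.6 CPM in minP1_PDL1 mice, 98.9, 105, 82.5 and 96.2 CPM in minP1 mice, 106, 93.0 and 95.9 CPM in PDL1 mice, and 104, 128 and 102 CPM in Control mice. All minP1_PDL1 values were below all others. Its log2 change against Control was -0.63 (SE 0.11, edgeR adjusted p = 0.394), with a DESeq2 adjusted p of 0.00323.

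Mki67 had 41.5, 67.7, 47.8 and 61.4 CPM in minP1_PDL1 monocyte- and macrophage-like cells, 83.2, 90.6, 83.3 and 81.1 CPM in minP1, 121, 68.6 and 113 CPM in PDL1 and 92.5, 108 and 80.6 CPM in Control. The minP1_PDL1 values again lay below the others, by under 1 CPM for PDL1 replicate 2. Monocyte- and macrophage-like cells were also scored for an Mki67 read after thinning to 10000 reads. The share with such a read was 12.5 ± 3.15% in minP1_PDL1 mice and 16.5 ± 1.27% in minP1 mice (SD). It was 17.6 ± 5.03% in PDL1 mice and 14.7 ± 2.52% in Control mice. Exact two-sided permutation tests of minP1_PDL1 gave p = 0.4 against Control, 0.143 against PDL1 and 0.0571 against minP1. Adjusted over 5 pairs these were 0.5, 0.357 and 0.286, and none passed. The smallest exact p possible was 0.0286 for each, too large for a single pair to pass after that adjustment. The tests therefore do not decide whether these shares differed. The log2 change of Mki67 was -0.77 against Control (SE 0.19, edgeR adjusted p = 0.398), with DESeq2 adjusted p = 0.0378 against Control and 0.0278 against PDL1. Mcm6 had 53.0, 41.9, 40.9 and 46.9 CPM in minP1_PDL1, 32.0, 58.3, 55.4 and 55.4 CPM in minP1, 84.1, 72.7 and 72.2 CPM in PDL1 and 89.3, 79.8 and 73.4 CPM in Control. Here both groups given the peptide lay below both groups without it, and the log2 change against Control was -0.81 (SE 0.18, edgeR adjusted p = 0.398, DESeq2 adjusted p = 0.0205) for minP1_PDL1 and -0.68 (SE 0.18, edgeR adjusted p = 0.999) for minP1.

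Other mitotic genes of this class had log2 changes against Control of -1.04 for Ccnb1 (SE 0.41), -0.89 for Nusap1 (SE 0.28), -0.86 for Cenpe (SE 0.29), -0.71 for Ube2c (SE 0.24) and -0.66 for Cdk1 (SE 0.21). At the upper end stood Ccna2 (-0.34), Ccnb2 (-0.20) and Foxm1 (0.15, SE 0.45). The S-phase genes ran from Ung (-1.20, SE 0.55) to Ccne1 (0.17, SE 0.55).

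The make-up of the class moved too. The C1qa Ch25h cluster made up 16.9 ± 4.08% of its cells in minP1_PDL1 mice, 35.3 ± 9.53% in minP1 mice, 25.8 ± 13.9% in PDL1 mice and 24.7 ± 6.26% in Control mice (SD). Within that cluster mitotic sums were 1584, 1765, 1006 and 1065 CPM in minP1_PDL1 mice, 1587, 1756, 1488 and 1536 CPM in minP1 mice, 1999, 1945 and 1358 CPM in PDL1 mice, and 1927, 2132 and 2118 CPM in Control mice. The minP1_PDL1 mice lay below Control mice there but overlapped minP1 and PDL1 mice. The median of mitotic genes against Control was -0.64 there (23 of 24 below 0). edgeR called 0 of 46 (0% of 12822 genes, with 12 members and 6.86% of genes at an unadjusted p under 0.05), and DESeq2 called Mki67 (0.226% of genes; log2 change -0.97, adjusted p = 0.0488). Mki67 had 93.6, 120, 42.8 and 69.7 CPM in minP1_PDL1 and 167, 167 and 147 CPM in Control cells of that cluster, on 21 to 47 cells per minP1_PDL1 mouse. Against minP1 the mitotic median in the cluster was -0.24, with 19 of 24 below 0 and 1 of 46 members at an unadjusted p under 0.05 (6.07% of genes), and the sums overlapped, unlike those of the whole class. Mixed cells were 86.8 ± 5.67% of the cluster in minP1_PDL1 mice, 66.4 ± 4.55% in minP1 mice, 59.8 ± 9.32% in PDL1 mice and 77.7 ± 3.61% in Control mice (SD). That left 1 to 8 unmixed cells per minP1_PDL1 mouse, and the part of mixed cells in these values was not tested.

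Markers of other lineages stood at 3336 ± 446 CPM in monocyte- and macrophage-like cells of minP1_PDL1 mice, 2866 ± 220 CPM in minP1, 3006 ± 628 CPM in PDL1 and 3303 ± 354 CPM in Control mice. Without mixed cells the mitotic sums were 277 ± 189 CPM in minP1_PDL1 mice, 1105 ± 441 CPM in minP1 mice, 895 ± 678 CPM in PDL1 mice and 1278 ± 679 CPM in Control mice. With a doublet score of up to 0.5 they were 263 ± 43.8 CPM, 755 ± 300.6 CPM, 866 ± 631 CPM and 963 ± 398 CPM in the same order. The lower mean of minP1_PDL1 mice was present in each set of cells. Without mixed cells the minP1_PDL1 mice (144 to 551 CPM) overlapped PDL1 (234 to 1589 CPM) and Control mice (495 to 1701 CPM), and with the doublet limit they (206 to 312.1 CPM) lay below the lowest value of every other group.

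In T-like cells neither list stood apart for minP1_PDL1 against Control. The S-phase sums were 2314, 2182, 1837 and 2150 CPM in minP1_PDL1 mice and 2508, 2232 and 1834 CPM in Control mice, and the mitotic sums 2395, 2803, 1731 and 2699 CPM and 2540, 2205 and 2448 CPM, with overlap in both. The medians were -0.07 and -0.06, and each changed sign when 1 mouse was left out. edgeR called 0 of 46 members (0.00793% of 12613 genes, with 2 members and 4.76% of genes at an unadjusted p under 0.05). DESeq2 called 0 members and 3 of all genes. For minP1 against Control the mitotic median was -0.46 (21 of 24 below 0). There 0 members had an unadjusted p under 0.05 (446 of all genes), and DESeq2 called 0 members (1 of all genes). The mitotic median ran from -0.75 without minP1 replicate 4 to -0.25 without Control replicate 3, and was -0.28 without minP1 replicate 1.

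In Foxp3 T-like cells mitotic sums of minP1_PDL1 and minP1 mice stood apart from each other, though no member was called. The mitotic sums were 3038, 3300, 3115 and 2386 CPM in minP1_PDL1 mice, 1601, 1669, 1823 and 2197 CPM in minP1 mice, 1958, 3088 and 1970 CPM in PDL1 mice, and 2345, 2261 and 1916 CPM in Control mice. All minP1_PDL1 values were above those of minP1 and Control mice, and they overlapped PDL1 mice. The median log2 change of minP1_PDL1 against minP1 was 0.93, with 23 of 24 mitotic genes above 0, and 0.44 for S-phase genes. edgeR called 0 of 45 members tested (0% of 10394 genes, with 3 members and 4.31% of genes at an unadjusted p under 0.05). DESeq2 called 0 members and 4 of all genes. In Cd8a Pdcd1 T-like cells the mitotic sums were 3100, 3529, 1427 and 4344 CPM in minP1_PDL1 mice and 4053, 3081 and 4634 CPM in Control mice, on 12 to 35 cells per minP1_PDL1 mouse. The medians against Control were -0.25 for mitotic and -0.10 for S-phase genes. edgeR called 0 members (0% of 10186 genes, with 2 members and 4.18% of genes at an unadjusted p under 0.05). DESeq2 called 0 members and 3 of all genes.

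NK-like cells had S-phase sums of 1527, 1642, 1222 and 990 CPM in minP1_PDL1 mice and 1339, 1880 and 2304 CPM in Control mice. The S-phase median was -0.47 (20 of 22 below 0) and the mitotic median 0.01. The S-phase median was -0.27 without Control replicate 3 and -0.31 without minP1_PDL1 replicate 4, and the mitotic median ran from -0.68 without minP1_PDL1 replicate 1 to 0.28 without minP1_PDL1 replicate 3. Mcm2 had a log2 change of -1.16 (SE 0.39) and Gins2 of -1.59 (SE 0.68). edgeR called 0 of 46 (0% of 12261 genes, with 5 members and 6.08% of genes at an unadjusted p under 0.05). DESeq2 called 0 members and 12 of all genes.

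In dendritic-like cells S-phase sums of all minP1_PDL1 mice lay above those of Control mice, but not in restricted sets of cells. The S-phase sums were 1156, 1450, 1055 and 1669 CPM in minP1_PDL1 mice, 1364, 974, 820 and 907 CPM in minP1 mice, 819, 887 and 678 CPM in PDL1 mice, and 905, 827 and 651 CPM in Control mice, so minP1_PDL1 and Control did not overlap. The S-phase median was 0.92 for minP1_PDL1 against Control (21 of 22 above 0), 0.95 against PDL1 (20 of 22) and 0.41 against minP1 (19 of 22), and 0.56 for minP1 against Control (20 of 22). Mitotic sums overlapped, at 1628, 1104, 437 and 1286 CPM in minP1_PDL1 mice and 936, 702 and 568 CPM in Control mice, with a median of 0.55. edgeR called 0 of 46 members (0% of 12053 genes), with 10 members and 5.14% of genes at an unadjusted p under 0.05 for minP1_PDL1 against Control. These sums rest on 30 to 55 cells per mouse, of which 50.8 ± 1.94% were mixed in minP1_PDL1 mice and 53.2 ± 3.13% in Control mice (SD). Without mixed cells the S-phase sums were 251 to 2269 CPM in minP1_PDL1 mice and 415 to 460 CPM in Control mice. With the doublet limit they were 700.2 to 1492 CPM in minP1_PDL1 mice and 338 to 766 CPM in Control mice, so the groups overlapped in both. The S-phase median of minP1 against Control was 0.35 without minP1 replicate 1, and that of minP1_PDL1 against minP1 was 0.24 without minP1_PDL1 replicate 4 and also without minP1 replicate 3. The mitotic median against Control was 0.28 without minP1_PDL1 replicate 1 and 0.89 without minP1_PDL1 replicate 3.

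DESeq2 called 1 member in dendritic-like cells, Ccne1, for minP1_PDL1 against Control (0.149% of genes) and for minP1 against Control (0.116%). Ccne1 had 7, 97, 25 and 156 reads in minP1_PDL1 mice, 55, 27, 7 and 87 reads in minP1 mice, 19, 26 and 4 reads in PDL1 mice and 0 reads in each Control mouse. The reads came from 1 to 7 cells per mouse, and no fold was taken against 0. Mki67 in this class had a log2 change of 1.76 (SE 0.52, edgeR adjusted p = 0.907) for minP1_PDL1 against Control.

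In non-immune cells the median member lay below Control with the antibody, and S-phase sums of PDL1 mice did not overlap those of Control mice. The S-phase medians were -0.58 for PDL1 and -0.41 for minP1_PDL1 against Control (22 of 22 below 0 in each), and the mitotic medians -0.59 and -0.35. S-phase sums were 1176, 1334, 1789 and 1903 CPM in minP1_PDL1 mice, 1231, 1171 and 1558 CPM in PDL1 mice and 2343, 2065 and 1768 CPM in Control mice, so minP1_PDL1 and Control mice overlapped. Mitotic sums were 1479, 2313, 509 and 2313 CPM in minP1_PDL1 mice, 1452, 264 and 2216 CPM in PDL1 mice, and 1919, 2835 and 1563 CPM in Control mice, with wide overlap. The mitotic medians moved several-fold when 1 mouse was left out. That of PDL1 was -0.16 without PDL1 replicate 2, -0.27 without Control replicate 2 and -1.20 without PDL1 replicate 3. That of minP1_PDL1 was -0.07 without minP1_PDL1 replicate 3, -0.10 without Control replicate 2, -0.22 without minP1_PDL1 replicate 1 and -0.57 without minP1_PDL1 replicate 2. The S-phase median of minP1_PDL1 was -0.23 without Control replicate 1 and -0.26 without minP1_PDL1 replicate 2. edgeR called 0 of 46 (0% of 12887 genes), with 3 members (4.33% of genes) at an unadjusted p under 0.05 for minP1_PDL1 and 4 (4.21%) for PDL1. DESeq2 called 0 members in both, beside 30 of all genes for minP1_PDL1 and 14 for PDL1. PDL1 replicate 2 held 14 such cells.

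The share of thinned cells with an Mki67 read was 14.0 ± 4.18% in minP1_PDL1 mice, 14.2 ± 0.528% in minP1 mice, 15.9 ± 1.83% in PDL1 mice and 15.2 ± 1.27% in Control mice (SD). Exact two-sided permutation tests over mice gave p = 0.686 for minP1_PDL1 against Control, 0.2 for minP1 against Control, 0.7 for PDL1 against Control, 0.514 for minP1_PDL1 against PDL1 and 0.971 for minP1_PDL1 against minP1. Adjusted over the 5 pairs, each was at least 0.875. The smallest exact p possible was 0.1 for PDL1 against Control and 0.0286 for the other pairs. A single pair could therefore not pass after adjustment over the 5 pairs, even at its smallest p. The widest spread was in minP1_PDL1 mice, from 10.3% in replicate 3 to 19.9% in replicate 2.

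Other cell cycle genes outside the set lay mostly below 0 in all sorted cells too. Of 53 other S-phase genes, 52 were below 0 for minP1_PDL1 against Control (median log2 change -0.36), and of 78 other mitotic genes 66 were (median -0.31). Of 32 G1 cyclins, their kinases and inhibitors, 21 were below 0 (median -0.11). edgeR called none of them (0% of all genes), with 15, 10 and 7 at an unadjusted p under 0.05, beside 10.4% of all genes in that comparison.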

How the data were processed

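CD45+ cells of 14 mice were profiled as single cells with BD Rhapsody whole-transcriptome libraries, and hashtag antibodies marked the mouse. The authors deposited 1 table of raw read counts per gene and cell barcode. Per the submitters' processing notes, tools were cutadapt 2.10, Bowtie2 2.3.4.1 and Seurat 2.3.4, with build mm10. Per the series' design text, reads were aligned to the mm10 transcriptome, and the hashtags gave each cell's mouse and the doublets. Reads were not collapsed to molecules. The 147 columns of no mouse (141 doublets, 6 undetected) were left out. Of 8115 barcodes, 383 with over 25% mitochondrial reads were removed, and 7732 were kept, where the submitters state 7613. Depth was 26007834 to 51230461 reads per mouse.

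Cells were clustered with scanpy 1.11.5 (2000 variable genes, 30 components, 20 neighbours, resolution 1), and clusters were named from at least 3 fixed markers among their top 50 genes. Doublets beyond the hashtags were kept, and a simulated-doublet score over 0.5 marked 26.2% of kept cells. Shares were taken after thinning each cell to 10000 reads. Counts summed per mouse, with at least 10 cells, were tested with edgeR 4.0.16 (R 4.3.3; TMM, quasi-likelihood, Benjamini-Hochberg over all genes tested). DESeq2 1.42.0, the replicate block, leaving out each mouse, other filters and other cell sets were alternatives. Code was tested on simulated data. The 14 mice are separate animals, and correlations of log2 CPM across genes between pairs of mice were 0.924 to 0.956.

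Genes were named by rule. A fixed set (Mki67, Top2a, Mcm2 to Mcm7, Pcna, Tyms, Rrm2, Cdk1, Ccnb1, Birc5, Ube2c, Stmn1, E2f1, Foxm1) was always eligible, with, per comparison, genes past the threshold and the 3 largest changes in each direction among S-phase and among mitotic genes. Other genes of the set are named to account for every member. The members and lists were chosen with earlier results of these data known. Promoter windows are from RefSeq.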

Additional observations from a re-analysis of the deposited data

Results flagged for a closer look

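Among 106 groups of 4 mice compared, 1 value stood apart from its group by Dixon's 95% criterion, where chance gives about 1 in 20 groups. Birc5, the gene of the passenger complex subunit survivin, had 69.6 CPM in all sorted cells of minP1 replicate 3, against 103, 102 and 109 CPM in the other minP1 mice.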

How the results depend on the processing

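No member was called by edgeR and no Mki67 share test passed, so there was no called direction to reverse. With 1 mouse left out, differences in Mki67 share ran from -2.12 to 1.09 percentage points for minP1_PDL1 against minP1. They ran from -0.208 to 1.63 for PDL1 against Control and from -3.14 to 0.067 for minP1_PDL1 against Control. The other pairs kept their sign. Without the non-immune clusters the S-phase medians of all sorted cells were -0.26 for minP1_PDL1, -0.10 for minP1 and -0.14 for PDL1, each against Control, and -0.044 for the interaction, because those cells were taken out of the sums. Without cells over a doublet score of 0.5, an alternative chosen after seeing the data, the S-phase median of minP1_PDL1 against minP1 was -0.39. DESeq2 called 3 members for minP1_PDL1 and 1 for PDL1 against Control in all sorted cells. In monocyte- and macrophage-like cells it called 3 against Control and 1 against PDL1, and in dendritic-like cells 1 for minP1_PDL1 and 1 for minP1 against Control. Leaving out 1 mouse at a time, the S-phase median of minP1_PDL1 against PDL1 in monocyte- and macrophage-like cells ranged from -0.47 to -0.12, the last without PDL1 replicate 1. The mitotic interaction there ranged from -0.72 without Control replicate 2 to -0.13 without PDL1 replicate 1. Without minP1_PDL1 replicate 3 the mitotic median against Control in all sorted cells was -0.19. With a replicate block the medians of minP1_PDL1 against Control in all sorted cells were -0.44 for S-phase and -0.39 for mitotic genes, and 0 members were called. The mice did not pair by number (19 pairs, r from -0.0684 to 0.181, 2 over 0.1). Levels without cells over the doublet score were 770 CPM of S-phase and 683 CPM of mitotic genes in monocyte- and macrophage-like cells, and 353 and 188 CPM in neutrophil-like cells. Without mixed cells, chosen after seeing the data, S-phase levels were 755 and 302.5 CPM in the same classes, and neutrophil-like mitotic levels 189 CPM. With cell cycle genes kept in the clustering, NK-like cells had 771 CPM of mitotic genes and a share of 3.87% with at least 5. The shares with at least 5 mitotic genes in this paragraph are means over mice with at least 10 such cells, while those of the report pool the cells. The shares of monocyte- and macrophage-like and of neutrophil-like cells were 7.27% and 0.270% under the doublet score, and 8.41% and 0% without mixed cells. With at least 3 mitotic genes the share was 15.9% in T-like, 14.96% in NK-like and 22.3% in monocyte- and macrophage-like cells. With at least 10 it was 7.52% in T-like, 7.75% in monocyte- and macrophage-like and 5.03% in dendritic-like cells. Without thinning it was 22.5% in monocyte- and macrophage-like, 19.5% in dendritic-like and 34.2% in non-immune cells. Thinned to 20000 reads it was 19.1% in T-like and 13.005% in neutrophil-like cells. Cuts of 3 and 10 in place of 5 raise and lower a share by definition. The cause of the other moves was not tested. The other alternatives moved 1384 medians, 52 levels, 38 shares and 85 Mki67 comparisons by less than the spread between mice or left their side of the threshold as it was.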

Other observations

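In neutrophil-like cells, which were not among the classes tested and of which each Control mouse held 10 to 21, mitotic sums were 1150, 1746, 668 and 477 CPM in minP1_PDL1 mice, 1088, 779, 724 and 1293 CPM in minP1 mice, 527, 287 and 1351 CPM in PDL1 mice, and 1962, 2567 and 2232 CPM in Control mice. All Control values were above all others. This is a description with no test. Of cells deep enough to be thinned to 10000 reads, 0 of 195 without and 21 of 199 with T and NK markers over 500 CPM together had at least 5 mitotic genes.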
